A study of Mus musculus with 8 samples.

Results

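The adrenergic receptors read in mouse liver are the cell-surface receptors for adrenaline and noradrenaline. Their genes were taken by symbol, as every probe whose RefSeq accession belongs to Adra1a, Adra1b, Adra2a, Adra2b, Adra2c, Adrb1 or Adrb3. These are 7 of the 22907 genes that could be named on the array, and 9 probes read them. The set was chosen by the level, detection and change of these probes over the 4 groups in these same arrays, so their levels and differences are given as a description, without a test. RNA from whole liver was hybridised to 1-colour Agilent arrays, 1 array per sample. There were 4 groups of 2 arrays: male liver-specific Bcl6 knockout, male wild type, female liver-specific Bcl6 knockout and female wild type, all from mice 10 to 11 weeks old. Bcl6 encodes a zinc-finger repressor of transcription. The strain, and the promoter or cell type in which the deletion was made, are not stated in the labels used here.

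The receptors pass a signal through G proteins. Receptors of the alpha-1 class act through Gq and phospholipase C to raise IP3 and calcium, those of the alpha-2 class act through Gi to lower cyclic AMP, and those of the beta class act through Gs to raise it. In hepatocytes both the calcium and the cyclic AMP arm activate glycogen phosphorylase kinase and so the release of glucose from glycogen, and Adra1b is the main alpha-1 receptor of rodent liver.

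The promoters of 3 of the genes are shown first, because these genes include the receptor that was read almost only in the knockout arrays (Adra2c), one that was moderately higher there (Adra2b) and the bright receptor that differed little (Adra1b). The sequences are from RefSeq on build GRCm38.p6, each 300 bases from 250 before the start of the gene to 50 after it, read 5′ to 3′ on the strand of the gene. Capitals mark matches to the motifs searched for. Adra2c lies on the plus strand at chr5:35278316-35278615, Adra2b on the plus strand at chr2:127362929-127363228, and Adra1b, at the first of the 2 starts listed for it, on the minus strand at chr11:43901188-43901487.
Adra2c: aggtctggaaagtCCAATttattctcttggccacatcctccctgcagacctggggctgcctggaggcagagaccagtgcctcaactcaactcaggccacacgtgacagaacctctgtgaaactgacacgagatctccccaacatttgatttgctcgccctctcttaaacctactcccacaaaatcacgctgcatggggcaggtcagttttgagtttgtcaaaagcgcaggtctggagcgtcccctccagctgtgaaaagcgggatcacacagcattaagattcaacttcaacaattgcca
Adra2b: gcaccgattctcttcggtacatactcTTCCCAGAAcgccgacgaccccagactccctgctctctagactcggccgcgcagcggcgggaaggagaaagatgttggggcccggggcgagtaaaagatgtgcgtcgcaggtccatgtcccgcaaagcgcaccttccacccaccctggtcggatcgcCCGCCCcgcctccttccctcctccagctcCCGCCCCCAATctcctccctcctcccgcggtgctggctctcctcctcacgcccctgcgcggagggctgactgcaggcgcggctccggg
Adra1b: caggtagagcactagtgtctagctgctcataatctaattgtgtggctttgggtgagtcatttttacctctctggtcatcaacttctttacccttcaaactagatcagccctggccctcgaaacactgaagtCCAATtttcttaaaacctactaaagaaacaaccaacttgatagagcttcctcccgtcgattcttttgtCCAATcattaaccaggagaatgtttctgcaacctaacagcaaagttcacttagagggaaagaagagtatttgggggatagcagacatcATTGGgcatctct

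The motifs searched for on both strands were TTCNNNGAA, a palindrome known from STAT binding and related to the Bcl6 motif, the cyclic AMP response element TGACGTCA and its core TGACG, the GC box GGGCGG, the TATA box TATAAA and the CCAAT box CCAAT. The Adra2c promoter held a CCAAT box at -237 and no other of these motifs, with 51.3% G and C and 7 CpG sites. The Adra2b promoter held TTCNNNGAA at -224, a GC box at -67 and at -38, and next to the second of these a CCAAT box at -32, with 68% G and C and 29 CpG sites. The first Adra1b promoter held only CCAAT boxes, at -119, -51 and 38, with 42.3% G and C. The second, not printed, held only GC boxes, at -185 and 30, with 71.3% G and C and 28 CpG sites. Of the 32851 promoters of this length in the table, 8.30% held TTCNNNGAA, 1.79% TGACGTCA, 20.8% TGACG, 35.7% GGGCGG, 13.6% TATAAA and 37.4% CCAAT. Promoters of 5 of the 7 receptors were in the table, and TGACG was found in those of Adra2a, at -69, and Adrb1, at -90. A match describes letters in the window only.

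The 8 arrays shared 1 slide and 1 scan time. Females filled row 1 of the slide and males row 2, so sex and slide row cannot be told apart. Of 59305 spots per array, 33677 to 36459 read well above background. Precision is limited by the number of arrays. Xist and 4 Y-linked genes (Ddx3y, Kdm5d, Uty, Eif2s3y) separated male from female arrays by 3.92 to 7.0 on the log2 scale. Bcl6 itself, read by 1 probe of unknown place relative to the deletion, was at 4.49 and 4.01 in male knockout, 3.97 and 2.91 in male wild type, 1.62 and 4.41 in female knockout and 2.95 and 0.86 in female wild-type livers (log2 level relative to the 75th percentile of the array). The probe read no lower on arrays labelled knockout, with differences of 0.81 ± 1.06 in males and 1.11 ± 1.06 in females (SE, limma adjusted p = 0.676 and 0.556), so it checks no label. The 10 hepatocyte markers were well above background in every group.

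**Figure D1:**
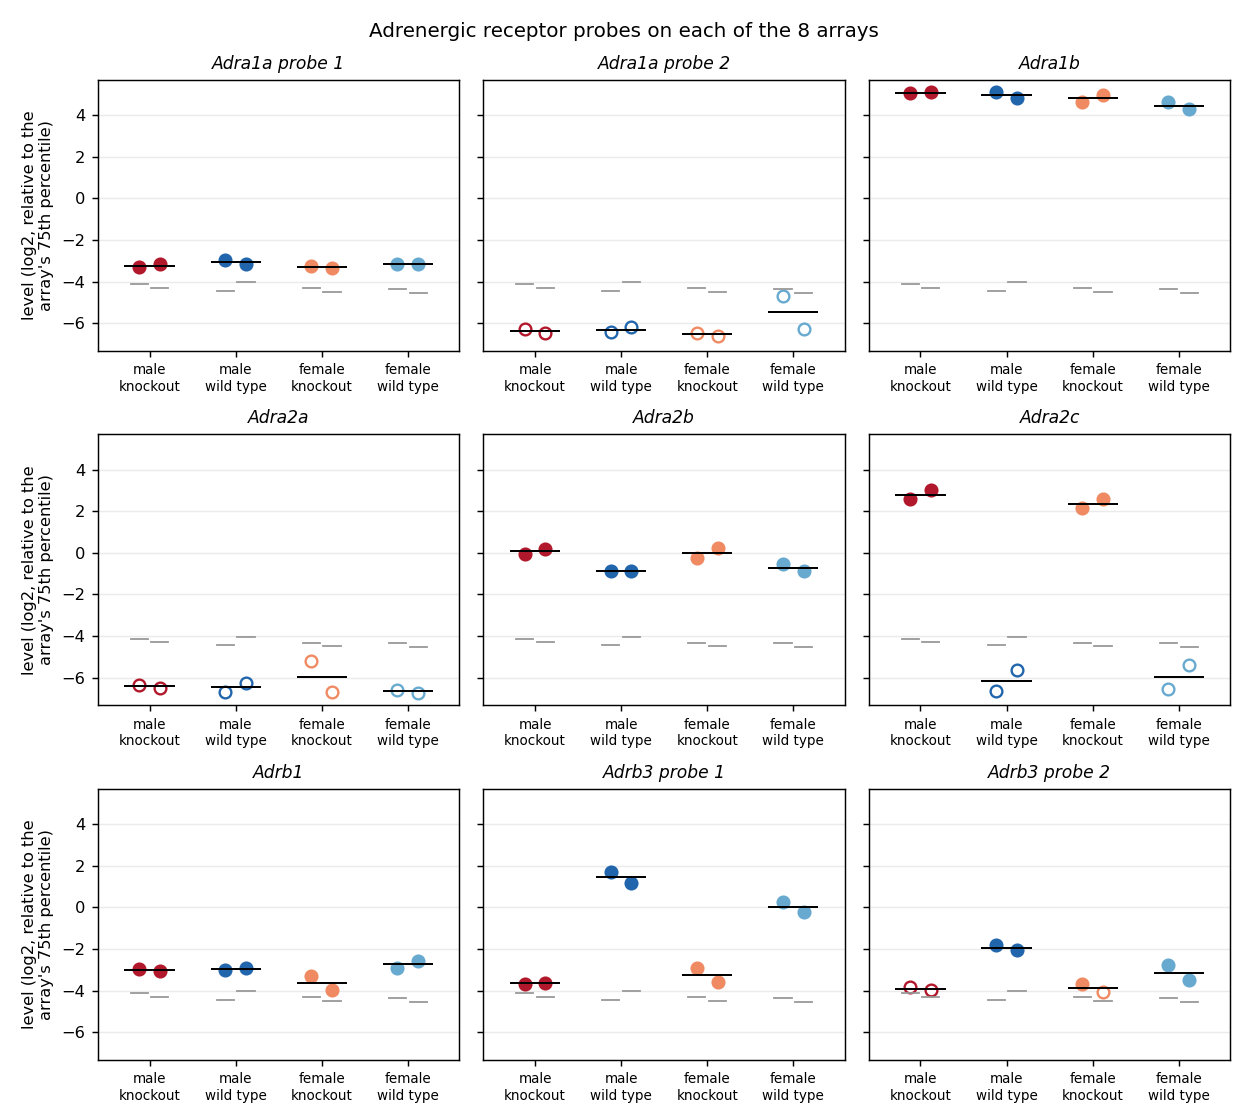
Log2 level of each of the 9 receptor probes, relative to the 75th percentile of the array, on the 8 arrays. Filled points were well above background and open points were not, black lines are group means (n = 2) and short grey lines give the lowest signal well above background on each array. Adra2c is filled in the 4 knockout arrays only, and Adrb3 probe 1 is at -2.91 or lower in the knockout arrays and at -0.20 or higher in the wild-type arrays.

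Among the alpha-2 receptors, which lower cyclic AMP, Adra2c was the receptor with the largest difference between genotypes. Adra2c is best known as an inhibitory receptor on sympathetic nerve endings. Its processed signal was 805 and 1090 in male knockout livers and 1.53 and 2.53 in male wild-type livers. In females it was 636 and 873 in knockout livers and 1.58 and 3.77 in wild-type livers. It was well above background on all 4 knockout arrays and on 0 of the 4 wild-type arrays, and the genotypes did not overlap in either sex. Group means were 2.80 ± 0.31 in male knockout and -6.16 ± 0.72 in male wild-type livers, and 2.36 ± 0.30 in female knockout and -5.98 ± 0.84 in female wild-type livers (log2 level, SD, n = 2 each). The wild-type groups have only a bound, so the knockout mean was set against the higher, on each wild-type array, of the probe's own signal and the lowest signal well above background. Adra2c was at least 131-fold higher in knockout than wild-type males and at least 112-fold higher in knockout than wild-type females. The fitted log2 differences were 8.96 ± 0.49 and 8.34 ± 0.49 (SE), and 4.18 and 3.90 after normexp background correction with an offset of 50. Adra2c passed the filter on low signals only through its knockout groups, so it had to differ. Between the knockout sexes it was 0.43 ± 0.49 higher in males than females on the log2 scale, less than the SE, and the sexes' arrays nearly touched.

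Adra2b, the other alpha-2 receptor that could be read, was moderately higher in the knockout. Its signal was 132 and 155 in male knockout livers against 85.8 and 69.2 in male wild-type livers. In females it was 123 and 172 in knockout livers against 105 and 85.1 in wild-type livers. The genotypes did not overlap in either sex, and the 2 knockout groups overlapped each other, as did the 2 wild-type groups. The log2 difference was 0.95 ± 0.20 in males, a 1.93-fold higher level, and 0.71 ± 0.20 in females, a 1.63-fold higher level. After normexp correction the differences were 0.65 and 0.42. In females the difference was 0.93 without the first knockout array and 0.48 without the second. The third alpha-2 receptor, Adra2a, which limits catecholamine release and acts in many tissues, was well above background on 0 of the 8 arrays, with signals between 1.42 and 3.83, and no fold is given for it.

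Adrb3, the beta receptor known from fat cells, where it drives lipolysis and heat production, was the receptor with the largest lower level in the knockout. On its brighter probe the signal was 10.4 and 10.9 in male knockout livers against 509 and 286 in male wild-type livers. In females it was 19.0 and 12.2 in knockout livers against 178 and 138 in wild-type livers. All 8 arrays were well above background, and every knockout array was below every wild-type array of either sex. Group means were -3.66 ± 0.05 in male knockout and 1.44 ± 0.39 in male wild-type livers, and -3.25 ± 0.47 in female knockout and 0.02 ± 0.31 in female wild-type livers (log2 level, SD, n = 2 each). The level was 34.2-fold lower in knockout than wild-type males (log2 difference -5.10 ± 0.29, SE) and 9.67-fold lower in knockout than wild-type females (-3.27 ± 0.29). Of 23253 genes and unnamed transcripts measured on both sides in males, 7 had a lower difference, and in females 8 of 24169 did. Adrb3 was chosen with this change known, so its rank is a description and no support for the difference. Fewer cells of a type and less RNA per cell cannot be told apart in whole liver.

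Adrb3 also differed by sex in the wild type. The level in wild-type males was 2.67-fold that of wild-type females (1.42 ± 0.29 on the log2 scale) with no overlap, and in the knockout the male minus female difference was -0.41 ± 0.29. The difference between genotypes had a male minus female value of -1.82 ± 0.41. The dimmer probe went the same way: its signal was 9.59 and 8.43 in male knockout against 43.7 and 30.8 in male wild-type livers, and 10.96 and 8.65 in female knockout against 21.9 and 13.9 in female wild-type livers. It was well above background on 0 of 2 male knockout arrays and 1 of 2 female knockout arrays, and both genotype pairs were free of overlap. On that probe Adrb3 read 3.91-fold lower in knockout than wild-type males, from the probe's own signals, which were not well above background in the knockout. Those 2 signals still exceeded the lowest signal well above background on their arrays, so no bound is given. In females the difference was -0.76 ± 0.26 on the log2 scale. The order of groups was male wild type, female wild type and then the knockout groups on both probes, and the 2 knockout groups differed by -0.41 ± 0.29 on probe 1 and -0.01 ± 0.26 on probe 2, male minus female. After normexp correction the differences on probe 1 were -2.72 in males and -1.55 in females, and the mean of the 2 probes gave -2.02 in females.

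Markers of cells in which these receptors are known were read beside them. Of 11 adipocyte markers 5 or 6 were well above background on both arrays of a group. Their summed level, in units of the 75th percentile of the array, was 8.35 to 8.84 in male knockout, 8.93 to 9.01 in male wild-type, 7.96 to 9.29 in female knockout and 10.5 to 13 in female wild-type livers. Adipoq and Ucp1, which define fat cells and brown fat, were well above background on 0 arrays, Plin1 on 1, Cidea on 2 and Lep on 8. None of the adipocyte markers tested was past the threshold between male genotypes, and in females Pparg was (-1.22 log2, adjusted p = 0.0438). For sympathetic neurons and Schwann cells, 5 of 10 markers were read in every group, with Phox2a and Npy well above background on 0 arrays. Their sum was 1.49 to 1.55 in male knockout against 1.72 to 1.92 in male wild-type livers, and 1.41 to 1.60 in female knockout against 1.40 to 1.45 in female wild-type livers. Th, tyrosine hydroxylase of catecholamine synthesis, is in this list and was picked out after its values were seen. It fell by 0.58 on the log2 scale in knockout males (adjusted p = 0.0497, kept in 1 of the 8 fits without 1 array) and differed by -0.05 ± 0.14 in females (adjusted p = 0.852). The summed level of 6 B cell markers was 3.44 to 3.6 in male knockout against 1.81 to 2.28 in male wild-type livers, and 3.67 to 3.72 in female knockout against 2.16 to 2.17 in female wild-type livers, with Cd22 and Cd79b the most abundant. The sum of 10 endothelial markers was 134.66 to 142 in male knockout against 98.4 to 102 in male wild-type livers, and 134.57 to 136 in female knockout against 119.7 to 125 in female wild-type livers, with Clec4g and Stab2 the most abundant. The 9 stellate cell markers summed to 116 to 128 in male knockout against 94.4 to 105 in male wild-type livers, and to 130 to 136.579 in female knockout against 133 to 136.578 in female wild-type livers. Of these, Colec11 and Pdgfrb were called higher in knockout males and Lrat lower in knockout females. The sum of 8 pancreatic acinar markers, of which 3 were read in each group, was 18.6 to 20.6 in male knockout against 39.7 to 59.4 in male wild-type livers, and 19.3 to 19.7 in female knockout against 19.9 to 24.9 in female wild-type livers. Cela1 was the 1 acinar marker called, lower in knockout males, and these genes of both lists were named after their values were seen. Without overlap of the genotypes, sums were also higher in the knockout of both sexes for hepatocytes, smooth muscle, neutrophils and erythroid cells, of males for cholangiocytes and platelets, and of females for skeletal and cardiac muscle. Some gaps were narrow: the lowest knockout and highest wild-type sums were 295.4 and 295.0 for erythroid cells in females, and 22.40 and 22.33 for smooth muscle in males. Of all genes tested, 62.0% in males and 55.4% in females did not overlap between genotypes, so nothing about cell content is read from the lack of overlap. The part of any of these cell types in the receptor differences was not tested.

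**Figure D2:**
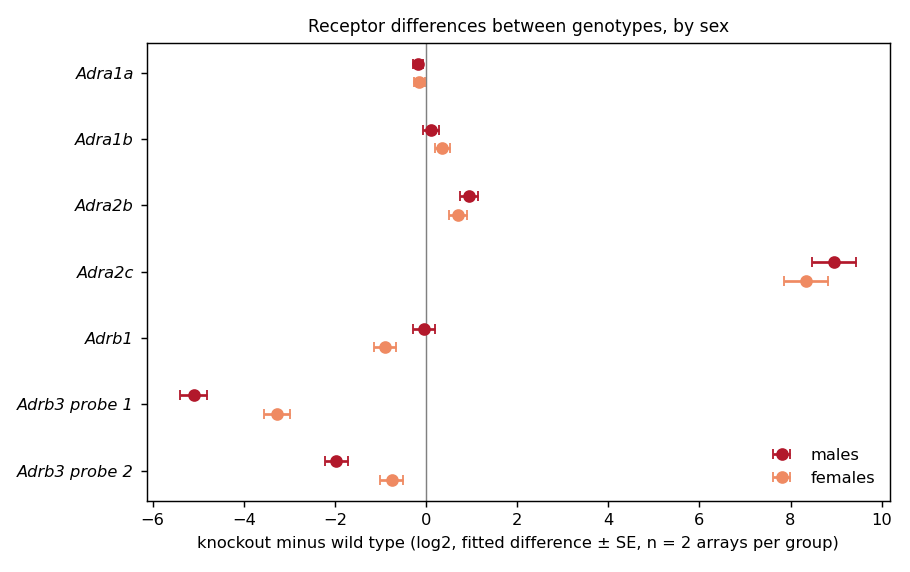
Fitted log2 difference of knockout minus wild type for the receptor probes kept by the filter, in males and in females, with the SE of the limma fit (n = 2 arrays per group). Adra2c lies at 8.96 and 8.34, Adrb3 probe 1 at -5.10 and -3.27, and Adra1a, Adra1b and Adrb1 in males lie within 0.17 of 0.

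Adra1b, the alpha-1 receptor that couples to calcium release in hepatocytes, was bright in every group. Its signal was 4505 and 4689 in male knockout against 5369 and 3688 in male wild-type livers, and 3627 and 4622 in female knockout against 3703 and 3093 in female wild-type livers. The male genotypes overlapped and the female genotypes did not, by a narrow margin. The log2 difference was 0.11 ± 0.17 in males, from -0.02 without the second wild-type array to 0.23 without the first, and 0.36 ± 0.17 in females, from 0.20 to 0.53. Males exceeded females by 0.53 ± 0.17 in the wild type and by 0.27 ± 0.17 in the knockout, without overlap.

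Adra1a, the other alpha-1 receptor of this set, which leaves out Adra1d, was dim but well above background on all 8 arrays. Its signal was 13.6 and 15.0 in male knockout and 19.9 and 14.2 in male wild-type livers. In females it was 15.1 and 14.5 in knockout and 16.8 and 17.9 in wild-type livers. The difference was -0.17 ± 0.12 in males, where the groups overlapped, and -0.15 ± 0.12 in females, where they did not, and normexp correction gave -0.01 and 0.02. Its second probe, for another transcript, was well above background on 0 of 8 arrays. Adrb1, the beta receptor best known from heart, had a signal of 17.4 and 16.3 in male knockout and 19.3 and 17.0 in male wild-type livers, which overlapped (-0.05 ± 0.24). In females it was 14.7 and 9.31 in knockout and 20.1 and 26.5 in wild-type livers, which did not overlap. The difference in females was -0.89 ± 0.24, with -1.24 without the first knockout array, -0.55 without the second and -0.11 after normexp correction.

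By the same limma fit, 10.7% of the 26548 genes and unnamed transcripts tested passed an adjusted p of 0.05 between male genotypes (5.77% higher and 4.93% lower in the knockout), 5.93% between female genotypes (3.48% higher and 2.45% lower), 0.976% between wild-type sexes, 0.0753% between knockout sexes and 0.188% in the interaction. The 6 receptors that passed the filter on low signals were part of this fit, but no call is given for them, because their values chose them. Arrays of the 2 genotypes did not overlap for 3 of the 6 in males and for all 6 in females, where 62.0% and 55.4% of all genes tested did not overlap. Between sexes 47.7% of all genes did not overlap in the wild type and 41.3% in the knockout. Since the values chose the receptors, nothing is read from these counts.

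The genes whose levels over the 8 arrays were most like those of Adra2c, among 2215 genes whose group means spanned at least 1 on the log2 scale, were Sorcs3 and Il27 (Pearson r 0.998 each), Acer1 (0.998), Cped1 (0.997) and Gpx3 (0.996). Sorcs3 and Acer1 differed by 6.0 and 7.0 between knockout and wild-type males on the log2 scale. For Adrb3 they were Il1rap (0.991), Tlr12 (0.988), Fmo5 (0.988), Chpt1 (0.987) and Gm826 (0.985). The points are 4 groups of 2 arrays, so these coefficients describe the group pattern. The genes on the array up to 2 places to either side of the receptors in the gene order of GRCm38.p6 were looked up after the values were seen. Beside Adra2c, Lrpap1 differed by 0.11 ± 0.11 in males and 0.15 ± 0.11 in females and Hmx1 by 0.56 ± 0.28 and 0.12 ± 0.28 (adjusted p = 0.257 and 0.828). Beside Adrb3, Eif4ebp1 differed by -0.05 ± 0.11 in both sexes. Beside Adra2b, Gpat2 differed by 0.81 ± 0.24 in males (adjusted p = 0.0867) and 0.61 ± 0.24 in females (adjusted p = 0.181). On its other places, in males and females, Dusp2 differed by 0.79 ± 0.32 and 0.31 ± 0.32, and Astl by 0.16 ± 0.12 and 0.25 ± 0.12. Fahd2a differed by 0.19 ± 0.10 and 0.39 ± 0.10, and none of these neighbours passed the threshold.

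The genes that carry, end or answer the receptors' signals were counted in 12 lists of 197 genes, of which 167 were tested. In males 26 passed the threshold, 12 higher and 14 lower in the knockout, 15.6% of the list against 10.7% of all genes tested. In females 18 passed, 9 in each direction, 10.8% against 5.93%. The median log2 difference was 0.04 in males and 0.05 in females, beside -0.04 and 0.00 over all genes. Among those called were 2 genes, Adcy1 in both sexes and Pde7b in males, that passed the filter on low signals only through the knockout groups and so had to differ. With only genes well above background on all 8 arrays tested, which leaves both out, the counts were 27 in males and 20 in females. Both sexes shared 15 of the called genes, with the same sign in each, 57.7% of the male list and 83.3% of the female list. Of the 138 signalling genes called in neither sex, 99 also had the same sign in both. The share of calls common to both sexes over all genes tested is not given, so nothing particular to these lists is read from the overlap. The labels do not say beyond replicate names whether arrays came from separate animals, so the p-values cover only the spread among these samples, which may be technical. The male count was 10 without the first and 9 without the second male knockout array, and 17 and 14 without the first and second male wild-type arrays. The female count was 11 without either male knockout array, 10 and 7 without the first and second female knockout arrays and 11 without the second female wild-type array. Of the genes called, 8 in males and 7 in females passed in every fit that left out 1 array. No sign reversed. Without the filter on low signals the counts were 13 in males and 8 in females, and a fit to the female arrays alone called 5.

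**Figure D3:**
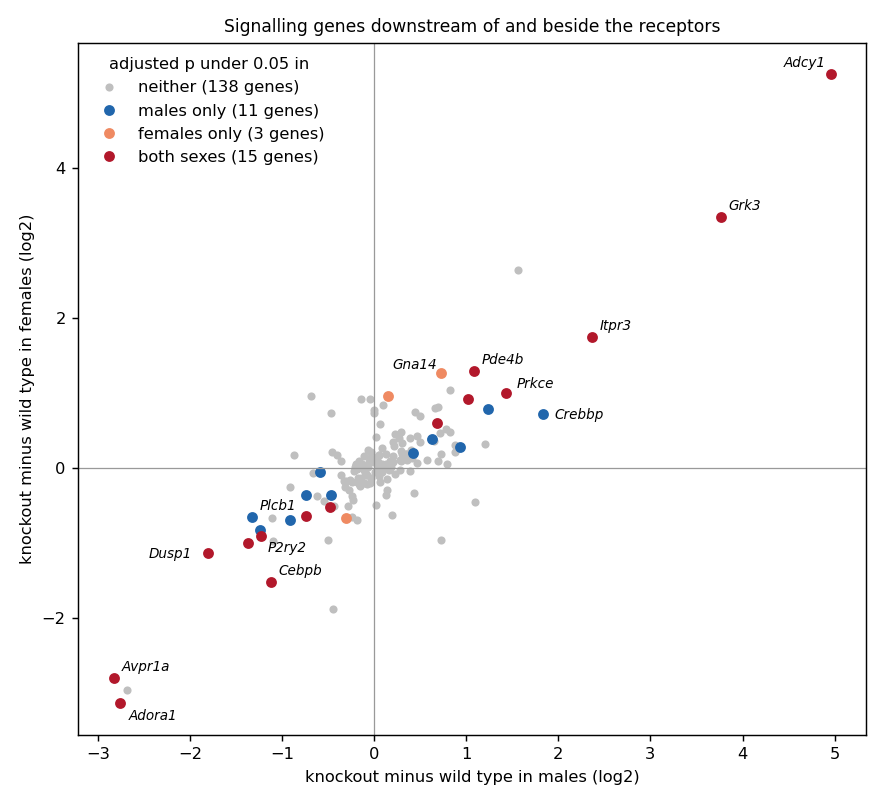
Log2 difference of knockout minus wild type in males (horizontal) and in females (vertical) for the 167 signalling genes tested, coloured by where the adjusted p was under 0.05. The 15 genes called in both sexes lie in the upper right or lower left, with Adcy1 and Grk3 farthest out on one side and Avpr1a and Adora1 on the other.

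Among the parts next to the receptors, Grk3, a kinase that phosphorylates agonist-bound receptors and uncouples them, rose in both sexes. Its log2 level was 2.20 and 2.09 in male knockout against -1.64 and -1.60 in male wild-type livers, and 2.17 and 1.98 in female knockout against -1.02 and -1.53 in female wild-type livers. The genotypes were far apart, by 3.76 ± 0.18 in males (13.6-fold, adjusted p = 0.000288) and 3.35 ± 0.18 in females (10.2-fold, adjusted p = 0.000791). It was the 1 gene called of the 17 kinases, arrestins and RGS proteins tested, in each sex. That was 5.88% of the list, beside 10.7% of all genes tested in males and 5.93% in females. Of 11 G protein alpha subunits tested, 1 passed in males and 2 in females. Their share of the list was 9.09% and 18.2%, beside 10.7% and 5.93% of all genes tested. Gnai1, of the inhibitory class, fell by 0.48 on the log2 scale in males (adjusted p = 0.0333) and by 0.52 in females (adjusted p = 0.0376). Gna14, of the Gq class, rose in females by 1.27 ± 0.18 (adjusted p = 0.0173) and had an adjusted p of 0.0558 in males. The female call was kept in 6 of the 8 fits without 1 array. Of the 8 fits that each left out 1 array, 2 kept the male and 0 the female call of Gnai1. After normexp correction its difference was -0.05 in males (adjusted p = 0.749) and -0.18 in females (adjusted p = 0.223). None of 12 beta and gamma subunits passed, with 3 at an unadjusted p under 0.05 in males and 0 in females. The share of all genes under that unadjusted threshold is not given, so nothing is read from the unadjusted counts.

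In the cyclic AMP arm, Adcy1, an adenylyl cyclase known from brain that calcium and calmodulin stimulate, stood far apart between genotypes. Its log2 level was -1.25 and -1.84 in male knockout against -6.70 and -6.30 in male wild-type livers, and -1.99 and -0.93 in female knockout against -6.61 and -6.81 in female wild-type livers. It was well above background on all 4 knockout arrays and on 0 wild-type arrays, and so was at least 6.48-fold higher in knockout males and at least 7.90-fold higher in knockout females. It passed the filter on low signals only through the knockout groups and so had to differ, and its call is no support for the difference. After normexp background correction the differences were 0.98 and 1.13 on the log2 scale, in place of 4.96 and 5.25. With Adcy1 counted, 3 of 6 cyclases tested passed in males and 1 of 6 in females, beside 10.7% and 5.93% of all genes tested. Of the other 5 cyclases tested, Adcy7 rose by 0.42 ± 0.09 and Adcy9 fell by 0.92 on the log2 scale in males (adjusted p = 0.0381 and 0.0476). Each kept its call in 2 of the 8 fits without 1 array, and Adcy7 lost it after normexp correction (0.25, adjusted p = 0.0626). Of 18 genes of protein kinase A, its inhibitors and anchors, 2 passed in males and 1 in females, 11.1% and 5.56% of the list. Both shares were near the 10.7% and 5.93% of all genes tested. Prkaca, the catalytic subunit of protein kinase A, rose by 0.69 ± 0.11 in males and 0.61 ± 0.11 in females (adjusted p = 0.0181 and 0.0371). Of the 8 fits without 1 array, 4 kept its male and 0 its female call. Prkar2b, a regulatory subunit of the same kinase, rose by 0.94 ± 0.12 in knockout males (adjusted p = 0.00792, kept in 6 of the 8 fits). After normexp correction its difference was 0.30 (adjusted p = 0.045). Of 16 phosphodiesterases of cyclic nucleotides tested, 2 passed in males and 1 in females. These were 12.5% and 6.25% of the list, also near the shares of all genes. Pde4b, which breaks down cyclic AMP, rose by 1.09 ± 0.17 in males and 1.29 ± 0.17 in females (adjusted p = 0.0144 and 0.0129), and the male call was kept in 5 and the female call in all 8 of the fits without 1 array. Pde7b, another phosphodiesterase of cyclic AMP, was well above background on both male knockout and 0 male wild-type arrays, and on both female knockout arrays and 1 female wild-type array. It was at least 2.20-fold higher in knockout than in wild-type males. It too passed the filter only through the knockout groups and had to differ, and its male call was kept in 3 of the 8 fits without 1 array and lost after normexp correction (0.25, adjusted p = 0.125).

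In the calcium arm 15 genes were tested, and 4 passed in males and 2 in females. These were 26.7% and 13.3% of the list, beside 10.7% and 5.93% of all genes tested. Itpr3, an IP3 receptor, was at a log2 level of 2.18 and 1.78 in male knockout against -0.41 and -0.36 in male wild-type livers, and at 1.69 and 2.14 in female knockout against 0.17 and 0.16 in female wild-type livers. The groups did not overlap, and it rose 5.17-fold in males and 3.36-fold in females (2.37 ± 0.20 and 1.75 ± 0.20, adjusted p = 0.0018 and 0.00825). Plcb1, a phospholipase C, fell by 1.33 on the log2 scale in males on its brightest probe (adjusted p = 0.0071, kept in 7 of the 8 fits), and its 3 probes ran from -1.55 to -1.33. After normexp correction the difference was -0.74 (adjusted p = 0.00316). Prkce, a protein kinase C, rose by 1.43 ± 0.20 in males and 1.0 ± 0.20 in females on its brightest probe (adjusted p = 0.0107 and 0.0443), while its other probe gave -0.12 and -0.20, so the probes disagree. Its male call was kept in 6 and its female call in 0 of the 8 fits without 1 array, and after normexp correction the differences were 0.72 (adjusted p = 0.00755) and 0.46 (adjusted p = 0.0505).

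**Figure D4:**
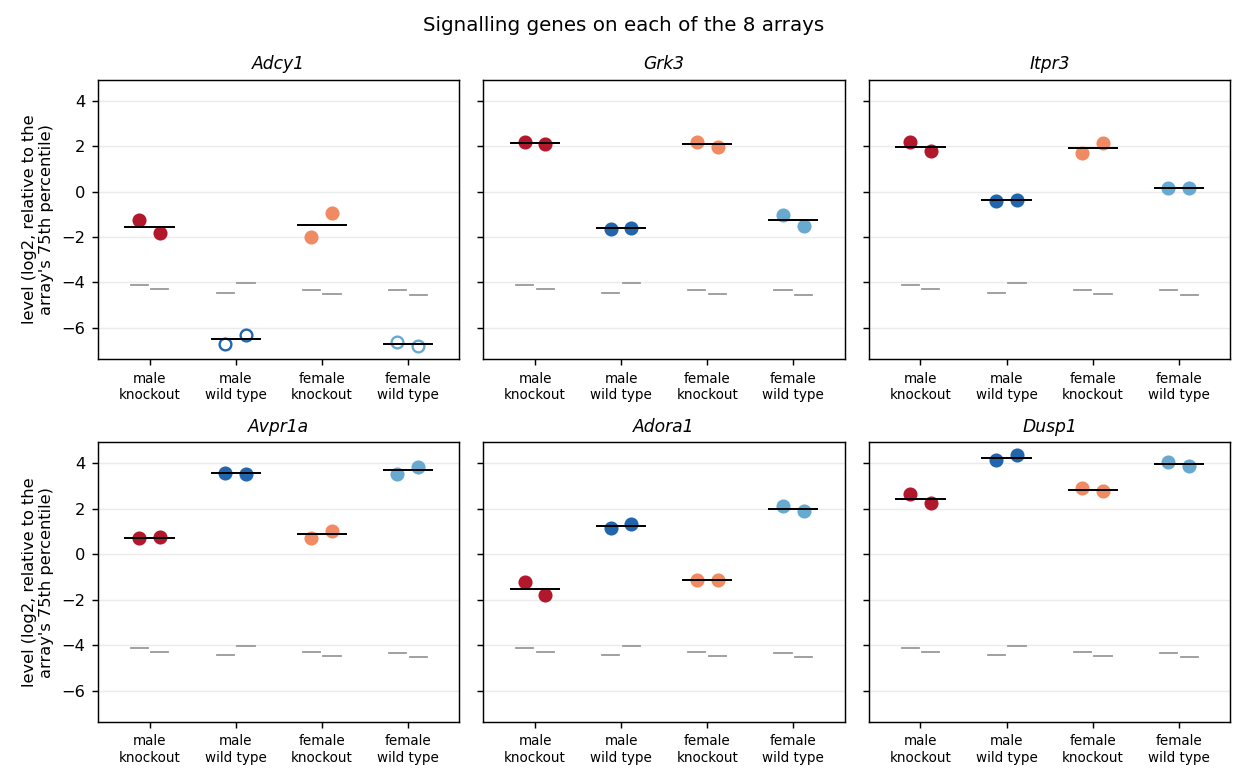
Log2 level, relative to the 75th percentile of the array, of 6 signalling genes on the 8 arrays, with filled points well above background, open points not, black lines for group means (n = 2) and grey lines for the lowest signal well above background on each array. Adcy1, Grk3 and Itpr3 lie higher in the knockout arrays and Avpr1a, Adora1 and Dusp1 lower, with no overlap in either sex.

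Other receptors that couple to G proteins, read in whole liver, fell where they passed: 4 of 14 tested in males and 3 of 14 in females, all lower. Over all genes tested, 4.93% were called lower in knockout males and 2.45% in knockout females. Avpr1a, the vasopressin receptor that acts through Gq, was at a log2 level of 0.71 and 0.76 in male knockout against 3.59 and 3.53 in male wild-type livers, and of 0.73 and 1.05 in female knockout against 3.54 and 3.85 in female wild-type livers. The genotypes were far apart, 7.07-fold lower in knockout males and 7.01-fold lower in knockout females (adjusted p = 0.000457 and 0.000839). Adora1, the adenosine receptor that acts through Gi, was at -1.23 and -1.81 in male knockout against 1.17 and 1.32 in male wild-type livers, and at -1.12 and -1.14 in female knockout against 2.12 and 1.90 in female wild-type livers. It was 6.78-fold lower in males and 8.82-fold lower in females (adjusted p = 0.00119 and 0.00125), and its second probe gave -0.89 and -0.95 on the log2 scale. P2ry2, a receptor for extracellular ATP and UTP, fell by 1.23 in males and by 0.91 in females on the log2 scale (adjusted p = 0.0121 and 0.042). The male call of P2ry2 was kept in 6 and the female call in 2 of the 8 fits without 1 array.

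Among 12 genes of catecholamine synthesis, transport and breakdown, 4 passed in males and 2 in females. These were 33.3% and 16.7% of the list, beside 10.7% and 5.93% of all genes tested. Akr1b3, aldose reductase, which also reduces catecholamine aldehydes, rose by 1.02 ± 0.11 in males and 0.91 ± 0.11 in females (adjusted p = 0.00523 and 0.0118), and the male call was kept in 8 and the female call in 7 of the 8 fits without 1 array. Slc18a1, a vesicular monoamine transporter, rose by 0.63 ± 0.14 in males (adjusted p = 0.0435), a call lost without any 1 of the 8 arrays. Of the other catecholamine receptors 2 were tested, and Drd4, the Gi-coupled dopamine receptor, rose in females by 0.96 ± 0.14 (adjusted p = 0.0177, kept in 6 of the 8 fits). After normexp correction that difference was 0.30 (adjusted p = 0.0745). It differed by 0.15 ± 0.14 in males (adjusted p = 0.533), and the interaction had an adjusted p of 0.34.

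Of 22 genes of glycogen breakdown and synthesis, the effectors of the receptors in hepatocytes, 2 fell in each sex and 0 rose. That was 9.09% of the list, beside 10.7% of all genes tested in males and 5.93% in females (4.93% and 2.45% called lower). Pygl, the liver glycogen phosphorylase, fell by 0.74 on the log2 scale in males (adjusted p = 0.023). In females it differed by -0.36 ± 0.14 (adjusted p = 0.21), where a spot on 1 wild-type array was marked and dropped from the fit. Ppp1r3b, which brings a phosphatase to glycogen, fell by 0.74 in males and by 0.65 in females (adjusted p = 0.0166 and 0.0354). Of the 8 fits without 1 array, 4 kept the male call of each of these genes and 1 the female call of Ppp1r3b. On the deposited value table Pygl lost its male call at the same difference (adjusted p = 0.223).

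Of 22 CREB and cyclic AMP response genes, 3 passed in males and 2 in females, where 10.7% and 5.93% of all genes tested passed. Dusp1, a phosphatase of MAP kinases induced by cyclic AMP, was at a log2 level of 2.65 and 2.25 in male knockout against 4.15 and 4.36 in male wild-type livers, and of 2.90 and 2.79 in female knockout against 4.05 and 3.90 in female wild-type livers. The genotypes did not overlap, and it fell by 1.81 in males and by 1.13 in females on the log2 scale (adjusted p = 0.0027 and 0.019), and 8 of the 8 fits without 1 array kept the male and 4 the female call. Cebpb, a transcription factor, fell by 1.12 in males and by 1.52 in females (adjusted p = 0.0174 and 0.0107), and 4 of those fits kept the male and 8 the female call. Crebbp, a coactivator that binds CREB, rose by 1.84 ± 0.40 in males on its brightest probe (adjusted p = 0.0393, kept in 2 of the 8 fits), while its other probe gave -0.17, so the probes disagree.

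Between sexes the signalling lists differed in 1 gene in the wild type and in 0 in the knockout, and the interaction was called for 0 genes by limma (37, 10 and 13 at an unadjusted p under 0.05). The share of all genes under that unadjusted threshold is not given, so nothing is read from the unadjusted counts. The 1 gene was Prkar2b, lower in wild-type males than in wild-type females (log2 difference -0.85 ± 0.12, adjusted p = 0.043), against 0.976% of all genes tested. That call was kept in 1 of the 8 fits without 1 array and lost after normexp correction (-0.22, adjusted p = 0.223). No genotype difference of a signalling gene was thus shown to depend on sex.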

How the data were processed

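Total RNA was labelled with Cy3, 1 array per sample, per the labels' protocols. Per the file headers, the deposited intensity of each spot came from Agilent Feature Extraction 11.5.1.1, which subtracts background and a spatial trend within an array. Version 9.1.3.1 is given in the submitters' processing notes. The authors' value table is on a log2 scale: subtracting a constant (6.99 to 7.30 by array) from log2 intensity gave it to within 0.01 for 99.98% of probes, with column medians from -3.25 to -3.13 and no centring per gene.

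Control spots and the 55 to 139 spots marked by the scanner software on an array were left out, and no spot was saturated. Spots of 1 probe were averaged to 56605 probes, of which 32989 were named through the RefSeq list of mouse genes (GRCm38.p6) and 23616 were not. That build differs from the mm9 annotation of the array, so the list served for names and gene order only. The log2 level is log2 of the processed signal minus the array's 75th percentile (127 to 158). Kept were the 33577 probes that read well above background throughout at least 1 group. The brightest probe stood for each of the 5627 genes with several, which left 26548 genes and unnamed transcripts, 15515 with a symbol. A linear model with 4 group means was fitted to the 8 arrays with limma 3.58.1 (R 4.3.3, 4 residual and 2.07 prior degrees of freedom), with Benjamini-Hochberg adjustment over all 26548 at 0.05, for knockout minus wild type in each sex, males minus females in each genotype, and the interaction. The fit was tested on simulated data. Python 3.11.15, pandas 2.3.3, numpy 2.4.6 and matplotlib 3.10.9 were used.

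The receptors, the 12 signalling lists and the 15 lists of cell markers were chosen with earlier results of these data known. Named were all receptors with every probe, Bcl6, Xist and 4 Y-linked genes, up to 3 called genes per signalling list and comparison by adjusted p, the 5 genes most like a receptor whose group means span at least 1, adipocyte markers, and the 2 most abundant members of a marker list set beside a result. Some genes of these lists are counted but not reported here by name. Alternatives were other background correction, scaling, filters, probe summaries, models, a replicate block, the deposited table, and each array left out.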

Additional observations from a re-analysis of the deposited data

How the results depend on the processing

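Precision was limited by the 2 arrays per group, and for Adra2c, Adra2a and Adcy1 by signals not well above background in whole groups. Without the filter on low signals the count of signalling genes called was 13 in males (26 as reported) and 8 in females (18), with more genes tested. With only the groups compared in the fit, and so fewer samples, it was 5 in females. Between wild-type sexes, where 1 gene was called, the count was 4 after normexp correction and 0 after quantile normalization, without the filter, and with only the groups compared; the cause was not tested. Leaving out 1 array at a time gave 9 to 29 genes in males, 7 to 19 in females and 0 to 2 between wild-type sexes. Between knockout sexes and in the interaction it was 0 under every alternative run; the interaction was not run on only the groups compared. Replicate numbers were used as a block in a further fit, which gave 23 genes in males, 14 in females and 0 between wild-type sexes. Deviations of same-numbered arrays correlated at 0.0492 to 0.102, so the numbers are not shown to pair the samples. Of the receptor values under the alternatives, 526 moved by less than the spread between replicates and 33 by more. Of the values of single signalling genes, 625 kept their call and 226 lost it, with no reversal. Adra2c has no value under a filter on all 8 arrays.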
